A study of Mus musculus with 5 samples.

Results

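The voltage-gated calcium and sodium channel genes of the mouse were examined for the histone mark H2AK119ub and for the Polycomb protein RYBP in embryonic stem cells. The members were all protein-coding RefSeq genes whose symbol begins with Cacna, Cacnb or Cacng, or with Scn and a digit, which gave 40 of 21887 genes on the named chromosomes. The data were peak lists from chromatin immunoprecipitation and sequencing (ChIP-seq), which give the stretches of the genome where an antibody pulled down more DNA than the surroundings. H2AK119ub was profiled in DDX5 knockout cells and in wild-type cells, and RYBP (antibody named DEDAF, an alias) in wild-type cells, with 1 library for each. Both genotypes were cells of the embryonic stem cell line MPI-II, kept on feeder cells in serum medium with LIF and with inhibitors of MEK and GSK3. The knockout cells were monoclonal and had been made with a Cas9 nickase and a pair of guides against the second exon of Ddx5, the gene of an RNA helicase, and the number of clones profiled was not stated in the labels. The 2 input libraries were not analysed here.

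Voltage-gated channels open when the membrane potential changes. A calcium channel has a pore-forming alpha1 subunit with an alpha2delta and a beta subunit attached, and a sodium channel has a pore-forming alpha subunit with beta subunits. Neurons, heart and skeletal muscle use them to fire and to contract, and embryonic stem cells are not an excitable tissue. Polycomb repressive complex 1 attaches ubiquitin to a lysine of histone H2A, RYBP is a subunit of its variant forms, and in embryonic stem cells the complex is known for sitting at CpG-rich promoters of genes that are used in later lineages.

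Each group was a single library, so differences could not be set against a spread between replicates and none was tested. The lists held 20994 H2AK119ub peaks in the knockout and 24235 in the wild type, of median width 1083 and 1360 bp, and 9564 RYBP peaks. Read depth is unknown, and a shallower or less enriched library gives a shorter list of narrower peaks, so depth and genotype cannot be told apart. On chromosome 6 the knockout peaks covered 1.36 times the wild-type length, against 0.529 to 0.837 on the other chromosomes that hold members. Ddx5 itself had 0 H2AK119ub peaks in either genotype and 1 RYBP peak, which checks no genotype label. The gene Rybp had 1673 bp of H2AK119ub in the knockout and 1300 bp in the wild type. Of 6 embryonic stem cell markers, Pou5f1, Nanog, Sox2 and Zfp42 had no peak in any library, Klf4 had a RYBP peak only, and Esrrb had H2AK119ub in both genotypes. Peak lists hold no expression level, so they cannot check the cell type.

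A gene counted as marked if at least 1 bp of a peak fell in the gene or its 2 kb flanks. H2AK119ub marked 28 of the 40 channel genes in the knockout, 70% (95% Wilson interval 54.6% to 81.9%), and 30 in the wild type, 75.0% (59.8% to 85.8%). Over all protein-coding genes these shares were 23.4% in the knockout and 27.5% in the wild type. RYBP lay at 25 members, 62.5% (47.0% to 75.8%), against 37.2% of all genes. The intervals treat genes as independent and cover counting error only. The same 28 genes were marked in both genotypes. Cacnb1 and Cacng6 were marked in the wild type alone, 2 of 40 members against 7.12% of all genes. This count was 5 with windows around the gene ends alone, 4 without the peaks narrower than 1 kb, and 1 when both lists were cut to the same number of their widest peaks. The 7.12% of all genes holds for whole genes with flanks, and the shares of all genes under these other settings are not given here. Over the whole genes and flanks, 0 members were marked in the knockout alone, against 2.96% of all genes. The knockout list also marked 93.3% of the 30 wild-type-marked members, against 74.1% of all wild-type-marked genes. For this, 1 knockout peak anywhere in the window was enough, even where no peaks of the 2 genotypes met, as at Scn11a and Scn4a.

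Channel genes are long, with a median length of 104062 bp against 17169 bp for all genes, and a long window has more room for a peak. The counts were therefore also read by length class. Of 13 members shorter than 50 kb, the knockout list marked 8 (61.5%) and the wild-type list 10 (76.9%), where all genes of that class gave 21.3% in the knockout and 26.1% in the wild type. Among 15 members of 50 to 150 kb, 11 were marked in each genotype, 73.3%, against 26.6% of all such genes in the knockout and 29.3% in the wild type. In the class of at least 150 kb, 9 of 12 members were marked in each genotype, 75.0%, against 39.6% of all such genes in the knockout and 39.8% in the wild type. The marked share of members was thus above that of all genes in each of the 3 length classes. Members were still longer within each class. Their median was 21527 bp against 11046.5 bp in the shortest class, 110474 bp against 78656.5 bp in the middle one and 343286 bp against 248290 bp in the longest. Of wild-type-marked genes shorter than 50 kb, the knockout list also marked 80.0% of members and 72.3% of all. For 50 to 150 kb these shares were 100% and 76.8%, and for at least 150 kb 100% and 83.7%. Here too, 1 knockout peak in the window was enough. From the shortest class to the longest, marked members had a median of 2, 14 and 6 wild-type peaks, against 2 in each class of all genes. The part of peak number in these shares was not tested. For RYBP the gap within classes was smaller than for the mark. RYBP lay at 46.2% of the members shorter than 50 kb, against 31.9% of all such genes, at 60.0% of those of 50 to 150 kb, against 50.8%, and at 83.3% of those of at least 150 kb, against 66.1%.

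**Figure D1:**
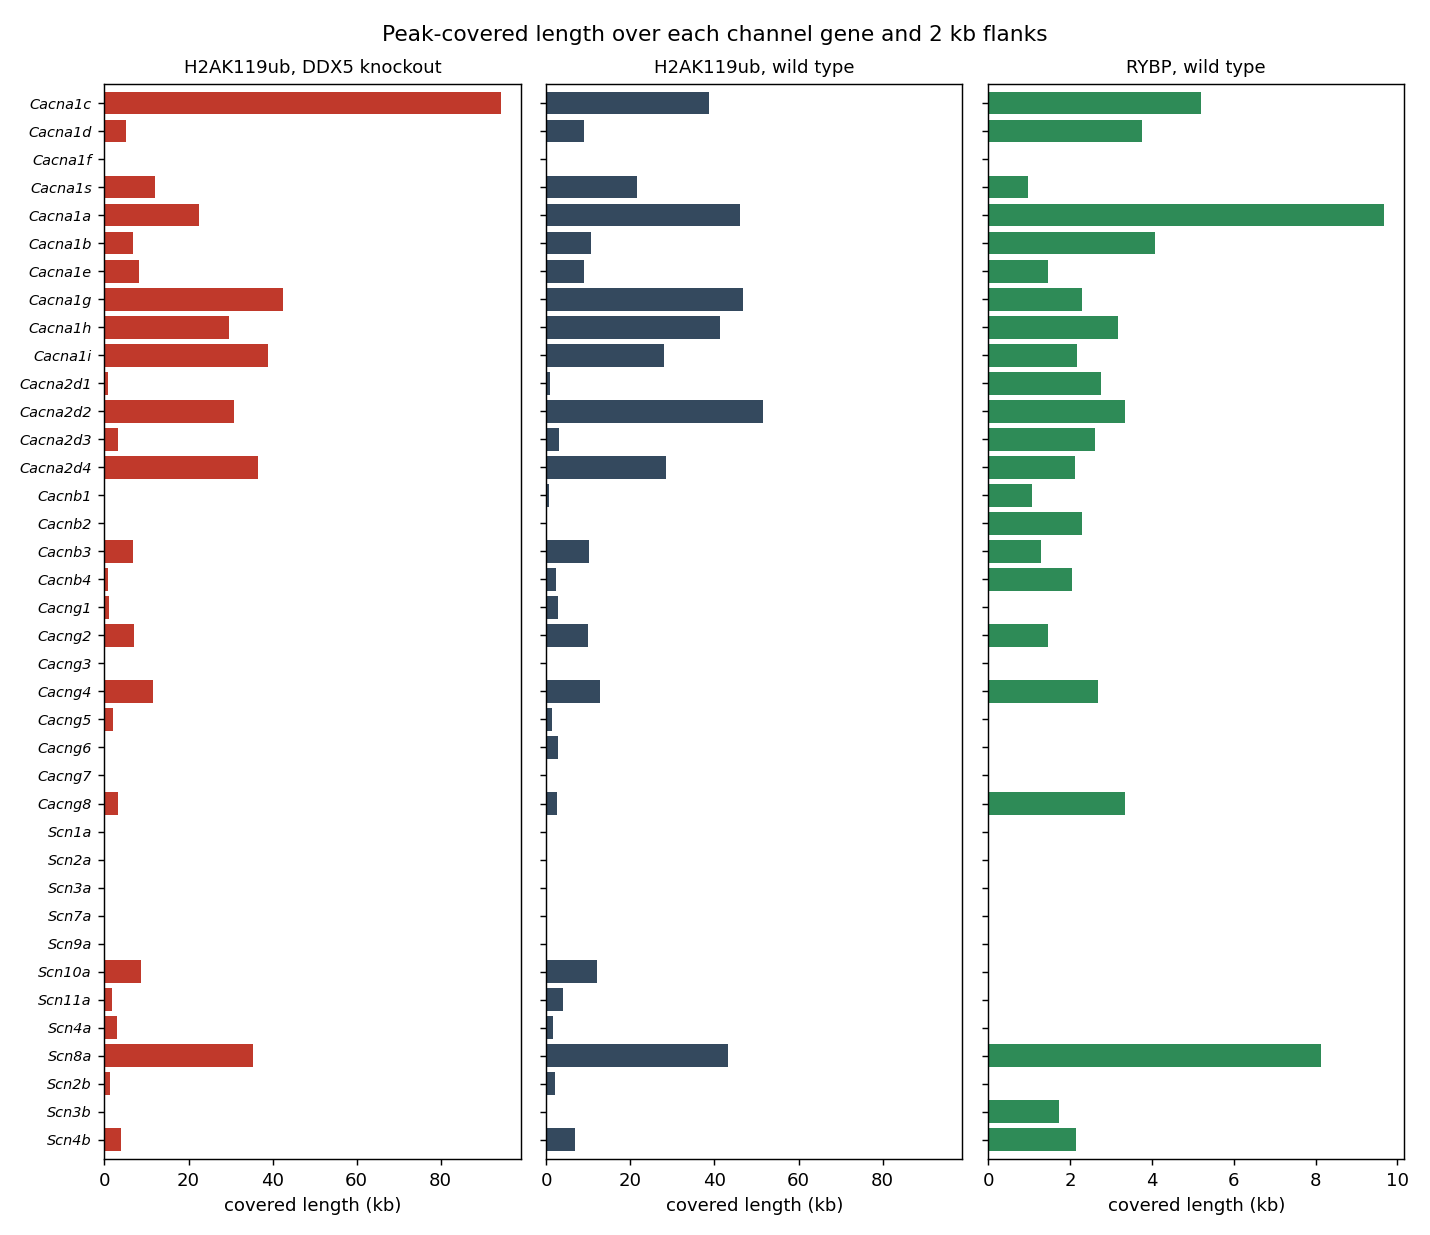
Length covered by peaks, in kb, over each of 38 channel genes and its 2 kb flanks, for H2AK119ub in the knockout (left, red), H2AK119ub in the wild type (middle, blue-grey) and RYBP in the wild type (right, green, on its own scale). Each bar is 1 library. Cacna1c has the longest bar in the knockout (94274 bp) and Cacna2d2 the longest in the wild type (51482 bp), and Scn1a, Scn2a, Scn3a, Scn7a and Scn9a have no bar in any panel.

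The mark was not spread evenly over the family. The 12 members with the most covered length, among them Cacna1c, Cacna1g, Cacna2d2, Scn8a, Cacna1h, Cacna1a, Cacna1i and Cacna2d4, held 88.0% of the members' covered length in the knockout and 84.2% in the wild type. At 8 members in the knockout and 11 in the wild type, peaks covered at least 20% of the window. Among all genes, windows covered to that extent made up 7.5% in the knockout and 11.2% in the wild type. Of 21887 genes ranked by covered length, which favours long genes, Cacna1c stood at rank 6 in the knockout and 98 in the wild type. Most of this length lay inside the genes. Only 12.1% of the members' covered length in the knockout and 14.5% in the wild type lay no farther than 2 kb from a gene end. All genes, which are shorter, gave 38.6% in the knockout and 37.3% in the wild type. No peak was counted for more than 1 member, and 12 of 317 knockout, 16 of 283 wild-type and 3 of 41 RYBP peaks were also in reach of another protein-coding gene.

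Promoters with and without RYBP differed in sequence. The RefSeq promoter table (GRCm38.p6, with the same coordinates as mm10) held 41 promoter windows for 30 of the 40 members, each from 250 bases before to 50 bases after a transcript start. The other 10 members, among them Cacna1a, Cacna1g, Cacna1h and Cacna2d4, had no entry. A RYBP peak lay within 2 kb of the start at 17 promoters, and these windows held 7 to 63 CG dinucleotides with a median of 35. The 24 promoters without RYBP held 2 to 29 with a median of 5. Over all protein-coding genes the medians were 24 with RYBP and 7 without it. The longer motif CGCG, which reads the same on both strands and contains the CG counted above, was in 13 of the 17 member windows with RYBP, 76.5%, and in 4 of the 24 without it, 16.7%. Over all protein-coding promoters it was in 79.7% of the windows with RYBP and in 35.5% of those without, so the members with RYBP were near the general share and those without it were below theirs.

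**Figure D2:**
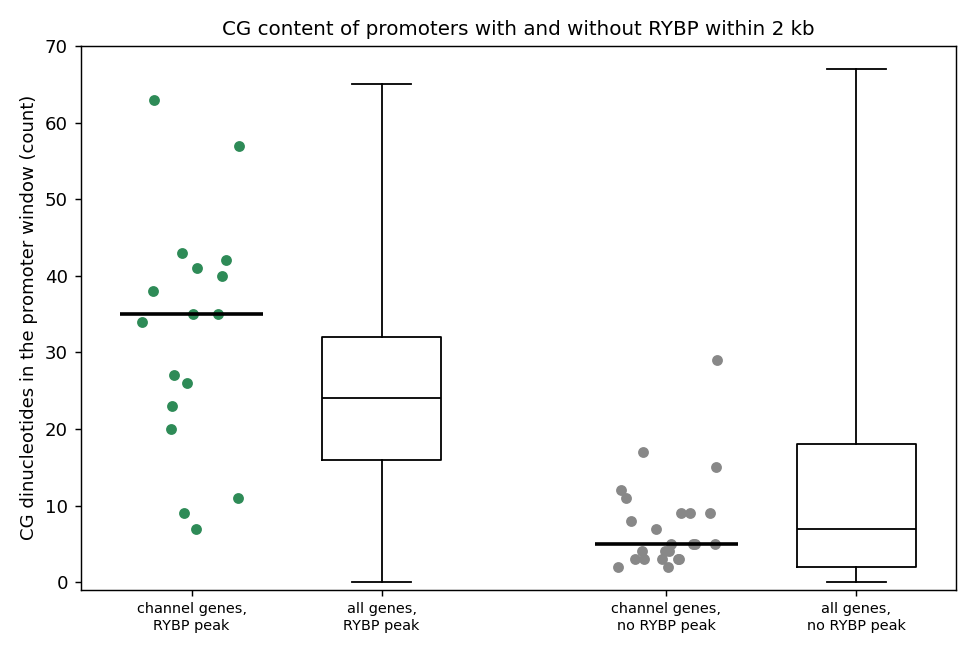
Number of CG dinucleotides in each 300-base promoter window, with a RYBP peak within 2 kb of the start (left pair) and without one (right pair). Points are the 41 member promoters with a bar at their median, 35 with RYBP and 5 without, and boxes give the quartiles, median and full range of all protein-coding promoters. Of the 15 points at 20 CG or above, 14 have RYBP.

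The sequences show the contrast within single genes that have several starts. Of 9 such members, 6 (Cacna1c, Cacna1d, Cacnb1, Cacnb2, Cacnb4 and Scn8a) had RYBP within 2 kb of their CG-richer promoters and not of the poorest one. Cacna1c, the pore of the L-type channel of heart, smooth muscle and brain, and Scn8a, the pore of a sodium channel of the axon initial segment and nodes of Ranvier, are printed as examples, 5′ to 3′, with CG in capitals and promoters numbered in the direction of transcription.
Cacna1c promoter 2, chr6:119108446-119108745, minus strand: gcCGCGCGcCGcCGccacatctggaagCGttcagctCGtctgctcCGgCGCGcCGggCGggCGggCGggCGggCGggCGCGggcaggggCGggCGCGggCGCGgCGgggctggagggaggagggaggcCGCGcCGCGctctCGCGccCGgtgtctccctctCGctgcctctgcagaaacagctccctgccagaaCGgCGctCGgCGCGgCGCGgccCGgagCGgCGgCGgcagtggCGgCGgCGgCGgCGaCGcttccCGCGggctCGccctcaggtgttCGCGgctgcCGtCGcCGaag
Cacna1c promoter 1, chr6:119196360-119196659, minus strand: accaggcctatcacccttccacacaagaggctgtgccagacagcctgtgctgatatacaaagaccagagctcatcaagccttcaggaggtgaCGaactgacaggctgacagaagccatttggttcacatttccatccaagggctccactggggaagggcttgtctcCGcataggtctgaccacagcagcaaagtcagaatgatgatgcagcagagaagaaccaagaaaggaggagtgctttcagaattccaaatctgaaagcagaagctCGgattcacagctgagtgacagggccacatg
Scn8a promoter 1, chr15:100870395-100870694, plus strand: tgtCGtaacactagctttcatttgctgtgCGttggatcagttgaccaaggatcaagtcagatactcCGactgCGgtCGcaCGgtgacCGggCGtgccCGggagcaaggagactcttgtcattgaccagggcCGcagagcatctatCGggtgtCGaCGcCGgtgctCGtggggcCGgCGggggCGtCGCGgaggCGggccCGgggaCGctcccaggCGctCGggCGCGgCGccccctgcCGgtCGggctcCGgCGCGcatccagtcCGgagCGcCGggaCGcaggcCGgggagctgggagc
Scn8a promoter 2, chr15:100936021-100936320, plus strand: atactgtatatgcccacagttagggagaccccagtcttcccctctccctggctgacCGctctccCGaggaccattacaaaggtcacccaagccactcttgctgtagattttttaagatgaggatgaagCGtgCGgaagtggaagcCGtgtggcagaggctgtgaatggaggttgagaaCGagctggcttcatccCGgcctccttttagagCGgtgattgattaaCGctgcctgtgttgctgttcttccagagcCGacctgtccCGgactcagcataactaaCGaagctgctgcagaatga
Cacna1c promoter 2 held 57 CG, more than 99.8% of all promoter windows, and lay under a RYBP peak of 3559 bp. H2AK119ub peaks touched it in the knockout and in the wild type. Cacna1c promoter 1 held 3 CG and no peak of any library was within 2 kb of it. Scn8a promoter 1 held 38 CG under a RYBP peak of 1060 bp, with H2AK119ub of both genotypes on either side of it and none over it. Scn8a promoter 2 held 12 CG and had no peak within 2 kb.

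RYBP was also within 2 kb of 3 member promoters with fewer than 20 CG, those of Cacna1s (9 CG) and Cacna1e (11 CG) and promoter 1 of Cacnb3. Cacnb2 and Cacnb3 encode calcium channel beta subunits, which bring the pore to the membrane. Their first promoters are shown because that of Cacnb2 has many CG and RYBP but no H2AK119ub, and that of Cacnb3 has few CG and yet RYBP.
Cacnb2 promoter 1, chr2:14604056-14604355, plus strand: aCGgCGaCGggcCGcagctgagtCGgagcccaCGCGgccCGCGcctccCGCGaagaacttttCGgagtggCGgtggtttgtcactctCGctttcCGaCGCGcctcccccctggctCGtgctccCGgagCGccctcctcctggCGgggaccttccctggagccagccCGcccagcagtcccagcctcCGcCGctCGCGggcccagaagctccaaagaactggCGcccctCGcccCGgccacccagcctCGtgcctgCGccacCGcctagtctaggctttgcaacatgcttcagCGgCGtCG
Cacnb3 promoter 1, chr15:98632078-98632377, plus strand: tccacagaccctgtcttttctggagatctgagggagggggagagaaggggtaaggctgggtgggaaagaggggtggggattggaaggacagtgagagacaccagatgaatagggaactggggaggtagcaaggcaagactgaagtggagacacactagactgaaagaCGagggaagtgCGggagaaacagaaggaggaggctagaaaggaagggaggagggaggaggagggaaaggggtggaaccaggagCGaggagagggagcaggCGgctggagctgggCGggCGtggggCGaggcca
Cacnb2 promoter 1 held 35 CG under a RYBP peak of 2295 bp, but no H2AK119ub peak lay anywhere in the Cacnb2 window in either genotype, the nearest being 1591455 bp from the gene in the knockout and 1591018 bp in the wild type. Cacnb3 promoter 1 held only 7 CG and lay under a RYBP peak of 1297 bp. Promoter 2 of Cacnb3, with 29 CG, had H2AK119ub within 2 kb in both genotypes and no RYBP peak within that distance. The RYBP peak ended at 98632523, just beyond 2 kb from the start of promoter 2 at 98634767. Cacng5 and Scn2a, with several starts each, had no RYBP at any of them.

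H2AK119ub went with RYBP at these starts. Of the 17 member promoters with RYBP within 2 kb, 15 had H2AK119ub within 2 kb in the knockout (88.2%) and 16 in the wild type (94.1%). For all protein-coding promoters with RYBP these shares were 36.4% in the knockout and 41.6% in the wild type. The 17 member promoters belong to 16 genes, because promoters 1 and 2 of Cacnb4 overlap and share 1 RYBP peak. Likewise, the 15 member promoters with at least 20 CG belong to 14 genes. Over all genes, 6601 promoters with RYBP belong to 5575 genes. Of the 24 member promoters without RYBP, 3 had the mark within 2 kb in the knockout (12.5%) and 4 in the wild type (16.7%), against 6.64% of all promoters without RYBP in the knockout and 9.28% in the wild type. Among member promoters with at least 20 CG, 14 of 15 had RYBP, against 55.7% of all promoters of that class. H2AK119ub was within 2 kb of 13 of these 15 in the knockout and 14 in the wild type, against 22.0% of the class in the knockout and 25.2% in the wild type. RYBP touched the 300-base window itself at 16 member promoters, of which 14 had H2AK119ub within 2 kb in the knockout and 15 in the wild type. The mark touched the window at 6 of these in the knockout and at 8 in the wild type. Over all 6117 promoters that RYBP touched, 2193 had the mark within 2 kb and 1089 over the window in the knockout, whereas in the wild type 2485 had it within 2 kb and 1342 over the window. Counted by peaks, 29 of the 41 RYBP peaks over members met a knockout H2AK119ub peak, 70.7% (55.5% to 82.4%), and 36 met a wild-type one, 87.8% (74.5% to 94.7%), where RYBP peaks over all genes gave 40.8% with the knockout and 46.7% with the wild type. The 41 peaks lay at 25 members and are not independent, so these intervals are too narrow.

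H2AK119ub lay at 9 of the 10 pore-forming calcium channel genes, the same 9 in each genotype. The exception was Cacna1f, the L-type pore of photoreceptor synapses, which lies on the X chromosome and had no peak of any library. Cacna1c (gene on chromosome 6, 118587240 to 119197384) had 61 H2AK119ub peaks covering 94274 bp in the knockout and 24 peaks covering 38699 bp in the wild type. Of its knockout peaks, 44 met no wild-type peak, and 15 of its 24 wild-type peaks met a knockout one. The 2 RYBP peaks of Cacna1c covered 5198 bp.

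The other L-type genes had less mark in the knockout. Cacna1s, the voltage sensor of skeletal muscle contraction, had 12033 bp in the knockout and 21608 bp in the wild type. Its RYBP peak, 976 bp of which fell in the window, also reaches Ascl5. Cacna1d, which paces the sinoatrial node and serves inner hair cells, had 5070 bp in 4 peaks in the knockout and 9051 bp in 10 peaks in the wild type. In Cacna1d, RYBP covered 3765 bp in 3 peaks, the one at its promoter 2 being 1010 bp wide.

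Genes for the presynaptic channels carried the mark as well. Cacna1a, the P/Q-type pore of cerebellar Purkinje cells, had 22520 bp in the knockout and 46128 bp in the wild type, and 13 of its 21 wild-type peaks met no knockout peak. It held 6 RYBP peaks, the most of any member, none of them within 2 kb of an annotated gene end. Cacna1b, the N-type pore, had 6841 bp in 6 peaks in the knockout and 10673 bp in 3 peaks in the wild type, and 2 RYBP peaks. For Cacna1e, the R-type pore, the values were close, at 8293 bp in the knockout and 8910 bp in the wild type. The annotated end of Cacna1e had mark but no RYBP, and its single RYBP peak lay at the one promoter in the table, which is inside the gene.

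Of the 3 T-type genes, whose channels open at low voltage and support rhythmic firing, Cacna1g and Cacna1h were covered over much of their length. Cacna1g had 42557 bp in the knockout and 46894 bp in the wild type, which is 60.8% and 67.0% of its window, and all 22 of its knockout peaks met a wild-type peak. Cacna1h had 29675 bp in 17 peaks in the knockout and 41353 bp in 12 peaks in the wild type, 44.9% and 62.6% of its window. Its widest wild-type peak, 8885 bp, contained parts of 3 knockout peaks, which covered 5162 bp of it. Cacna1i had more in the knockout, 38962 bp in 30 peaks, than in the wild type, 28075 bp in 18 peaks. These were 33.9% and 24.4% of its window. Each of the 3 genes had 1 RYBP peak, at one end of the gene.

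Alpha2delta genes, which encode extracellular subunits that help bring the channel to the cell surface, were all marked in both genotypes and all had RYBP. Cacna2d2 had 30926 bp in the knockout and 51482 bp in the wild type, and Cacna2d4, on chromosome 6, had 36631 bp in the knockout and 28358 bp in the wild type. Part of the Cacna2d4 mark lies over Lrtm2, a gene within it, which reached 6 of its 16 knockout peaks and 4 of its 14 wild-type peaks. The only RYBP peak of Cacna2d4, 2125 bp wide, was also in reach of Lrtm2 and not within 2 kb of either end of Cacna2d4. The 2 longest genes of this class held little. Cacna2d3 covers 817833 bp of chromosome 14 and had 3337 bp in the knockout and 3089 bp in the wild type, in 2 peaks each, on either side of the promoter. Cacna2d1 had a single peak next to its promoter, of 728 bp in the knockout and 978 bp in the wild type.

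Genes of the beta subunits all had RYBP, and they differed in H2AK119ub. Cacnb3 had 6908 bp in the knockout, 34.4% of its window, and 10137 bp in the wild type, 50.4% of its window. Cacnb2 had none, and Cacnb4 had 918 bp in the knockout and 2287 bp in the wild type. Cacnb1, the skeletal muscle beta subunit, had 0 bp in the knockout and one wild-type peak of 622 bp, under its RYBP peak and also in reach of Rpl19. The nearest knockout peak was 16597 bp away from Cacnb1.

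Gamma genes include the AMPA receptor regulators Cacng2, Cacng3, Cacng4, Cacng5, Cacng7 and Cacng8 together with Cacng1, a subunit of the skeletal muscle channel, and its relative Cacng6. Of the 8 genes, 5 were marked in the knockout (62.5%), 6 in the wild type (75%), and 3 had RYBP (37.5%). All protein-coding genes gave 23.4%, 27.5% and 37.2%, so RYBP in this class was near the general share. Cacng4 had 11490 bp in the knockout and 12793 bp in the wild type. Cacng2, the gene of stargazin, had 7109 bp in the knockout and 9906 bp in the wild type, with only 20.5% of the wild-type length also covered in the knockout. Cacng8 had 3246 bp in the knockout and 2569 bp in the wild type, with 2 RYBP peaks at its high-coordinate part and none at its promoter, which held 2 CG. Cacng6 had 0 bp in the knockout, whose nearest peak was 7643 bp away, against 2677 bp in 2 adjacent peaks in the wild type. Cacng1 had 1135 bp in the knockout and 2731 bp in the wild type, Cacng5 had 2074 bp in the knockout and 1291 bp in the wild type, and neither gene had RYBP. Cacng3 and Cacng7 had no peak of any library.

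Sodium channel pore genes differed among themselves. Scn3a, Scn2a, Scn1a, Scn9a and Scn7a form a cluster on chromosome 2, from 65457118 to 66784910, and encode channels of central neurons (Scn1a, Scn2a, Scn3a), of pain-sensing neurons (Scn9a) and the sodium sensor of the brain (Scn7a). None of the 5 had a peak of H2AK119ub in either genotype or of RYBP. In the 1328 kb of the cluster there was 1 knockout H2AK119ub peak and 0 wild-type ones, and the 3 RYBP peaks lay outside the channel genes and their flanks, with 2 of them at Galnt3 and Ttc21b. Chromosome 2 as a whole held 10.7 knockout and 13.2 wild-type H2AK119ub peaks per Mb. The absence of a peak does not show that the mark is absent, since the depth is unknown.

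**Figure D3:**
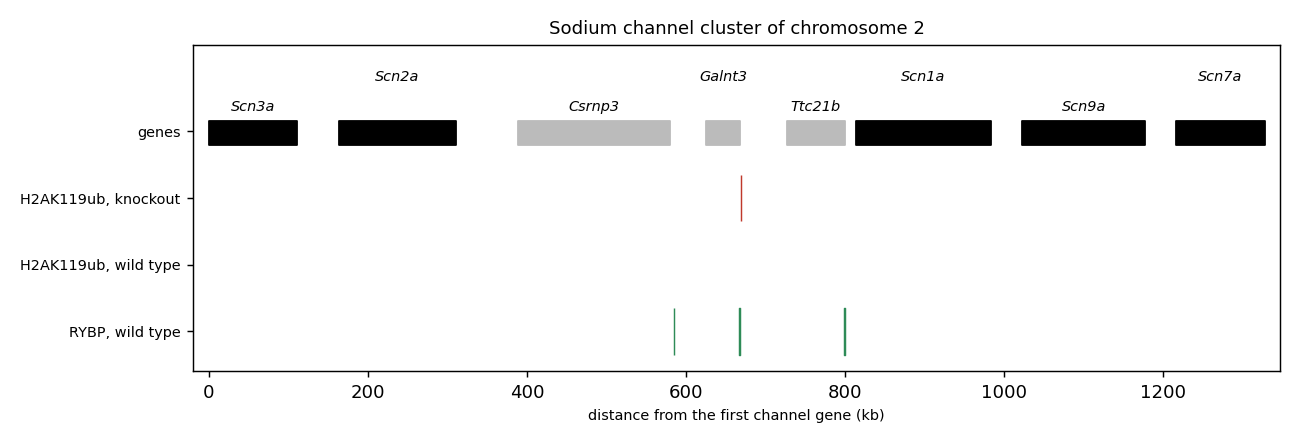
Peaks over the sodium channel cluster of chromosome 2 (1328 kb), with distance in kb from the first channel gene on the horizontal axis. Black bars are channel genes, grey bars other protein-coding genes, and the rows below hold the peaks of each library. The span has 1 knockout and 0 wild-type H2AK119ub peaks and 3 RYBP peaks.

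The promoters of Scn1a, Scn2a, Scn7a and Scn9a held few CG, and Scn3a has no entry in the table. Those of Scn1a and Scn9a are printed because they lack RYBP and the mark, for comparison with Cacna1c promoter 2 and Scn8a promoter 1.
Scn1a promoter, chr2:66440788-66441087, minus strand: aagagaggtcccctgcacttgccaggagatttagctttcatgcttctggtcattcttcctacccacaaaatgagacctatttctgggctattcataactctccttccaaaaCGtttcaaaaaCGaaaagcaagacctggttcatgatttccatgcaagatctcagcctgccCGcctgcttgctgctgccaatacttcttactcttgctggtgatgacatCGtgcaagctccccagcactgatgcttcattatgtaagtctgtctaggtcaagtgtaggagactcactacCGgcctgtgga
Scn9a promoter, chr2:66634913-66635212, minus strand: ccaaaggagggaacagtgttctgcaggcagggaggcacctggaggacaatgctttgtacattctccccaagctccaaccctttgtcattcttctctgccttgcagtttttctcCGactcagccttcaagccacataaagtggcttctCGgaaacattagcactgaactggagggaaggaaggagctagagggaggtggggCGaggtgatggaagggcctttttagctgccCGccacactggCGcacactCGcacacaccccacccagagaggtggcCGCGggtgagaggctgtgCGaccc
The Scn1a window held 5 CG and the Scn9a window 9, and 28.4% and 41.1% of all promoter windows held fewer. Scn7a had 3, and the starts of Scn2a had 3 and 9.

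Scn10a and Scn11a, which encode channels of pain-sensing neurons and lie on chromosome 9, were marked in both genotypes and had no RYBP. Scn10a had 8799 bp in 10 peaks in the knockout and 12048 bp in 8 peaks in the wild type, and 7 of its knockout peaks met a wild-type peak. Scn11a had 1731 bp in the knockout and 3892 bp in the wild type, and its 2 knockout peaks met none of its 3 wild-type peaks.

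Scn8a was the only sodium channel member on chromosome 15. It had 35408 bp in the knockout and 43188 bp in the wild type, in 23 peaks each. RYBP had 5 peaks there, of which 3 met a knockout H2AK119ub peak and 5 a wild-type one. The widest knockout peak of Scn8a, 5890 bp, lay near the far end of the gene rather than at promoter 1, and a RYBP peak of 2103 bp fell inside it. Scn4a, the skeletal muscle pore, had 2873 bp in 3 peaks in the knockout and 1608 bp in 1 peak in the wild type. None of these Scn4a peaks met one of the other genotype, and the gene had no RYBP.

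**Figure D4:**
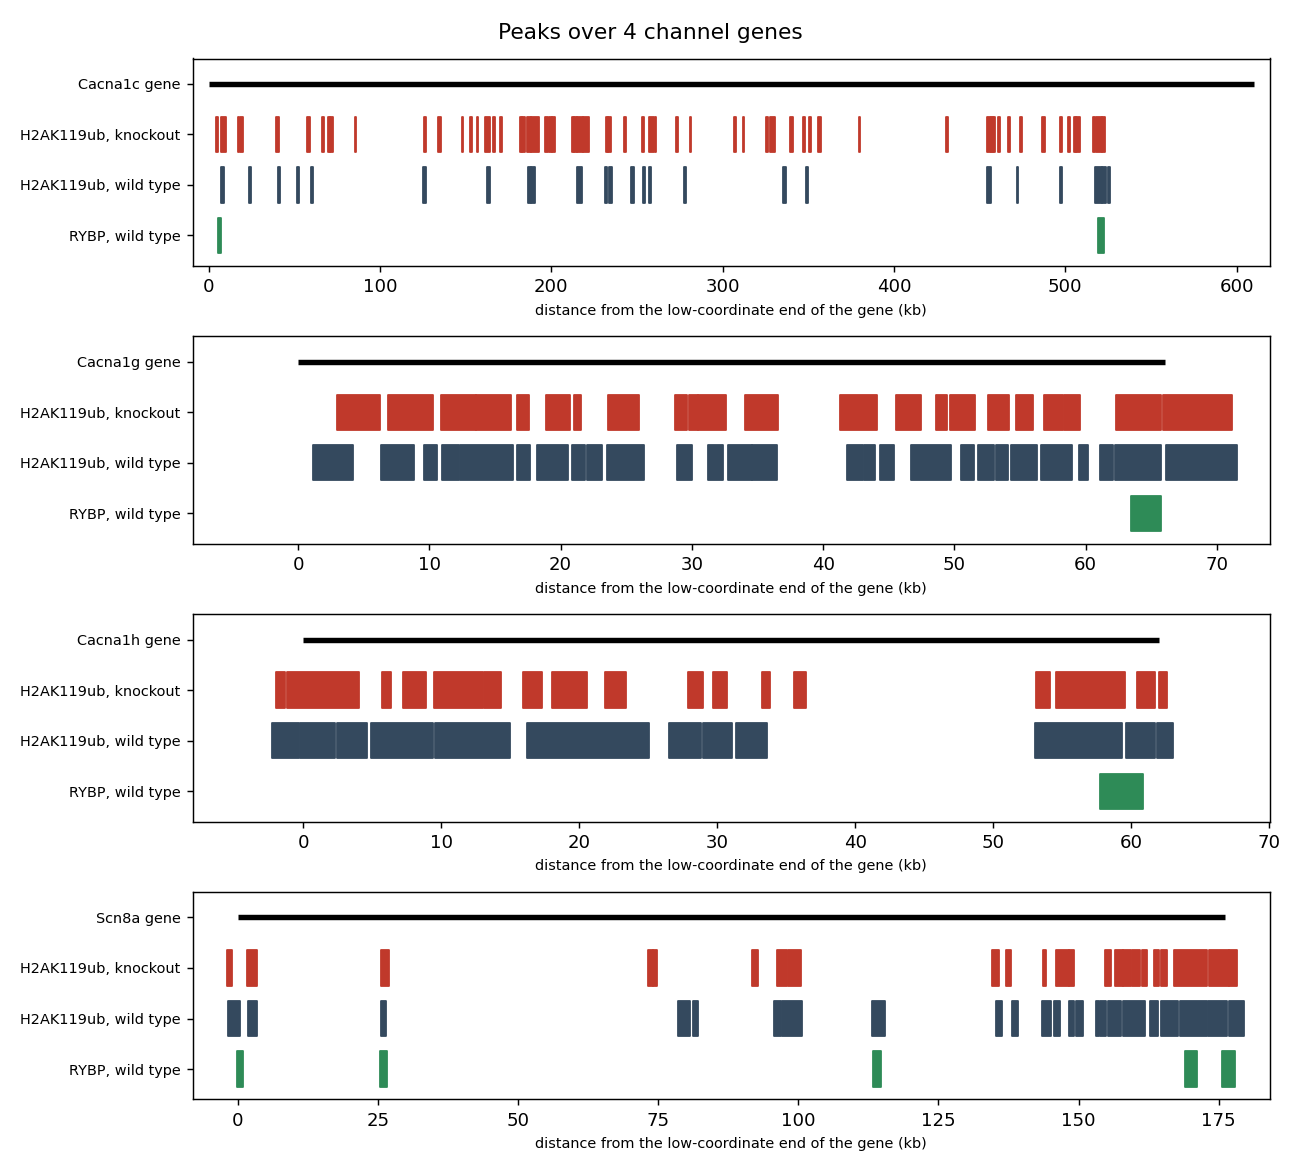
Peaks over Cacna1c, Cacna1g, Cacna1h and Scn8a, with distance in kb from the low-coordinate end of each gene on the horizontal axis and a separate scale for each gene. The black line is the gene, and each block is a peak of the library named on the left. Cacna1c has 61 knockout and 24 wild-type H2AK119ub peaks scattered along the gene, while blocks cover 60.8% of the Cacna1g window in the knockout and 67.0% in the wild type.

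Among sodium channel beta genes, whose products adjust gating and adhesion, Scn4b and Scn2b were marked in both genotypes. Scn4b had 3968 bp in the knockout and 6713 bp in the wild type, and Scn2b had 1216 bp in the knockout and 2153 bp in the wild type. Scn4b had 1 RYBP peak and Scn2b none. Scn3b had a RYBP peak of 1733 bp at its low-coordinate end and no H2AK119ub in either genotype, as had Cacnb2. They were the 2 members with RYBP and no mark, whereas 3545 of all 8142 genes with RYBP had no mark. The other 23 of the 25 members with RYBP were marked in the wild type, against 52% of all genes with RYBP.

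Covered length was compared between the genotypes gene by gene. For the 28 members marked in both, the knockout length divided by the wild-type length had a median of 0.724, against 0.718 for all 4467 genes marked in both. It was at least 1.5-fold lower in the knockout at 11 of the 28, against 43.5% of all such genes, and at least 1.5-fold higher at 3, against 6.45%. With windows of 2 kb around the gene ends alone, 23 members were marked in both. Of these, 7 were at least 1.5-fold lower and 0 at least 1.5-fold higher. With peaks of at least 1 kb alone, 24 were marked in both, and 11 were lower and 1 higher by that fold. The shares of all genes under these settings are not given here. The median of the family was close to that of all genes. Summed over the 40 members, the knockout covered 477.8 kb and the wild type 520.4 kb, a ratio of 0.918, against 0.667 for all genes. Without Cacna1c this ratio was 0.796, and without both chromosome 6 members 0.765, against 0.633 for all genes outside that chromosome. Of the wild-type length, 57.8% was also covered in the knockout, and 177.1 kb was covered in the knockout alone against 219.7 kb in the wild type alone.

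The 3 members past 1.5-fold in the upward direction were Cacna1c (2.44), Scn4a (1.79) and Cacng5 (1.61). Scn4a and Cacng5 had at most 2873 bp in any library. For Cacna1c, the ratio over the 10 Mb around it, from 110 to 120 Mb, was 1.64 with the gene and 1.56 without it, and 26 of the 272 genes of chromosome 6 marked in both genotypes had a ratio at least as high, among 73 of 4467 in the genome. The part of the chromosome in the value of Cacna1c was not tested. Cacna2d4, also on chromosome 6, had a ratio of 1.29. That was below the 1.36 of all peaks on the chromosome but above 1.16, the median of the 272 genes there marked in both. Cacna1i stood at 1.39 on chromosome 15, where the ratio was 0.837. In the downward direction the lowest were Cacnb4 (0.401), Cacng1 (0.416), Scn11a (0.445) and Cacna1a (0.488). Of the 28 genes, 17 had a ratio above that of their own chromosome. The chromosome ratio sums all peaks, while these genes are only those marked in both. Over all genes marked in both, the median ratio was also above the chromosome ratio on every chromosome but 6 and X. On chromosome 9, for example, it was 0.677 against 0.585. The count of 17 is therefore not read as particular to the members.

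**Figure D5:**
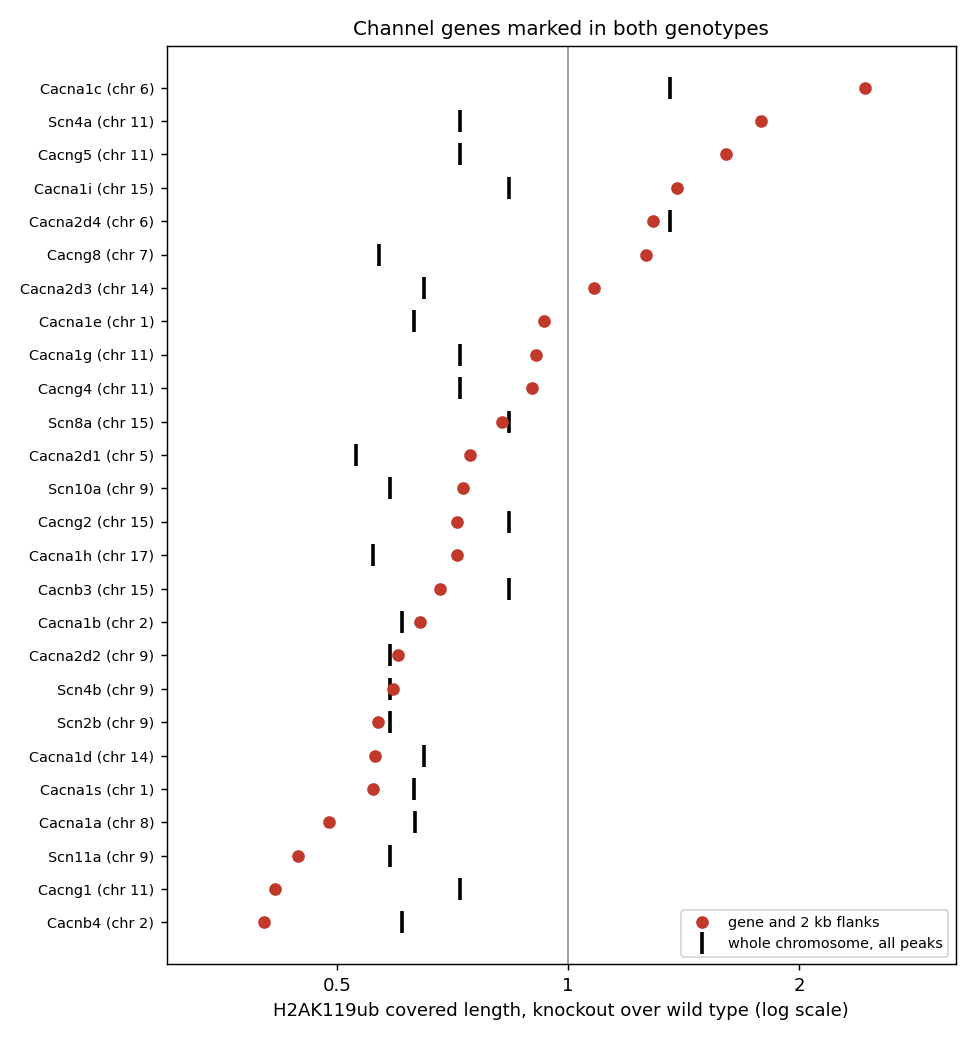
Ratio of H2AK119ub covered length, knockout over wild type, on a log scale for 26 channel genes marked in both genotypes (red points), with the ratio of all peaks on the same chromosome as a black tick. The points run from 0.401 (Cacnb4) to 2.44 (Cacna1c), and 15 of 26 lie to the right of their tick. On every chromosome shown except 6, the median of all genes marked in both also lies to the right of the tick.

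At the level of peaks, 179 of the 283 wild-type H2AK119ub peaks over members met a knockout peak, 63.3% (57.5% to 68.7%), against 52.9% of wild-type peaks over all genes. Of the 317 knockout peaks, 212 met a wild-type one, 66.9% (61.5% to 71.8%), against 71.3% of knockout peaks over all genes. Outside chromosome 6 these shares were 77.1% over members (71.4% to 81.9%) and 72.8% over all genes. Peaks of one gene share their neighbourhood, so these intervals are too narrow.

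Genes that work with these channels or are related to them in structure were looked up as a list of 41 symbols, of which 38 matched a gene. The list held the leak channel complex, endolysosomal, sperm, pacemaker, acid-sensing and epithelial sodium channels, ryanodine receptors and scaffold partners. H2AK119ub marked 27 of the 38 in the knockout, 71.1%, and 29 in the wild type, 76.3%, and RYBP lay at 24, 63.2%. All protein-coding genes gave 23.4%, 27.5% and 37.2%, and the genes of the list were longer, with a median of 54106.5 bp against 17169 bp. The most covered were Ryr1, the calcium release channel of skeletal muscle (18053 bp in the knockout and 26092 bp in the wild type), the epithelial sodium channel gene Scnn1a (18127 bp in the knockout and 20919 bp in the wild type, on chromosome 6), and the acid-sensing channel gene Asic4 (15152 bp in the knockout and 21043 bp in the wild type). Hcn4, a pacemaker channel of the heart, had 4170 bp in the knockout and 15057 bp in the wild type, and Tpcn1 had 3735 bp in the knockout and 15497 bp in the wild type. Nalcn, the pore of the sodium leak channel, had no peak of any library. Among these genes the median ratio was 0.692 and the ratio of summed lengths 0.591.

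Set beside other families of excitable cells, the 94 genes whose symbol begins with Kcn were marked at 63 members in the knockout, 67.0%, and 62 in the wild type, 66.0%, with RYBP at 67. The 92 neurotransmitter receptor genes were marked at 39 in the knockout, 42.4%, and 46 in the wild type, 50.0%, with RYBP at 49. Over all protein-coding genes the marked shares were 23.4% and 27.5%, and 37.2% had RYBP. Median lengths were 32691.5 bp for the Kcn genes, 55993.5 bp for the receptor genes and 104062 bp for the members. These families were not split by length. The ratio of summed covered length was 0.686 for the potassium channel genes and 0.602 for the receptor genes. No test of these differences was made, because genes of one library are not replicates.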

How the data were processed

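ChIP-seq libraries of mouse embryonic stem cells were used: H2AK119ub in DDX5 knockout cells, H2AK119ub in wild-type cells and RYBP in wild-type cells, 1 library each, grouped by their titles. Bowtie2 2.2.5, MACS 1.4 and the build mm10 are named, per the submitters' processing notes. Not given in the sources used here are what each tool did, at which threshold, and how inputs entered. The authors' deposited files list peak positions, called per library, and their score column is 0 for every peak, so no peak height was used and depth is unknown.

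Starts were converted to positions counted from 1. Genes and promoters came from RefSeq tables of GRCm38.p6, on chromosomes 1 to 19, X and Y. For each gene with 2 kb flanks the peaks sharing at least 1 bp were counted and the covered base pairs summed (Python 3.11.15, pandas 2.3.3, numpy 2.4.6), with Wilson intervals at 95% from scipy 1.17.1. The interval code was tested on simulated peaks. The fold used was 1.5. Alternatives were other windows, wider peaks, equal peak numbers, a 50% overlap and leaving out chromosome 6. A further 2 comparisons, leaving out Cacna1c and combining gene ends with leaving out chromosome 6, were added after values had been seen. Every member was open to naming, with full values for the 12 most covered, those marked in 1 genotype alone and those with RYBP. Members and lists were chosen with earlier results of these data known. Single values of 2 members are not reported here, while counts and sums over the family include them.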

Additional observations from a re-analysis of the deposited data

How the results depend on the processing

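Over 65 recomputed values, 57 stayed within 1.5 times the reported count or ratio, or within the interval of the reported share, and 8 did not. With windows of 2 kb around the gene ends alone, 5 members in place of 2 had the mark in wild type only, and 75.0% of wild-type peaks met a knockout peak. Of 23 members marked in both there, in place of 28, 7 in place of 11 had at least 1.5-fold less covered length in the knockout. At least 1.5-fold more was found at 0 in place of 3. Dropping peaks narrower than 1 kb gave 4 members with the mark in wild type only, and 1 of 24 members marked in both was at least 1.5-fold higher in the knockout. With equal numbers of the widest peaks, 1 member had the mark in wild type only. When an overlap of at least 50% was required, 52.5% of wild-type peaks were met by knockout peaks, as a stricter overlap must lower that share. The cause of the other moves was not tested, and the shares of all genes under these settings are not given here. The number of members marked in the knockout alone was 0 in each alternative run. The ratio of summed covered length was 0.765 to 0.972 across all alternatives. Leaving out a replicate was not possible with 1 library per group. No paired analysis was possible because each group has 1 library and the result comes from no test. Absence of a peak is limited by a depth that is unknown.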
